A study of Mus musculus with 28 samples.

Results

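Atoh1, Gfi1 and Pou4f3 were induced singly or together in embryoid bodies (EBs) grown from mouse embryonic stem cells (ESCs), and the Dox-treated cells whose cassette held Atoh1 are compared here with those whose cassette did not. The comparison takes 14 of the 28 RNA-seq libraries in the series. The 4 lines with Atoh1 (iAtoh1, iG+A with Gfi1, iP+A with Pou4f3, and iGPA with both) gave 8 libraries. The 3 lines without it (iGfi1, iPou4f3 and iG+P, which carries both) gave 6 libraries. Every line was built in A2loxCre ESCs, carries 1 polycistronic cassette in which 2A peptides separate the factors and mVenus comes last, and received 2 µg/ml doxycycline (Dox) for 48 h from day 4 of EB differentiation. The mVenus+ cells were sorted at day 6. Where present, Atoh1 carried a FLAG tag and Pou4f3 a MYC tag. The 2 replicates of a line are different clones, and the replicates of 1 line share its cassette, so the line was taken as the unit. No Dox-treated line without any of the 3 factors was analysed here, so Atoh1 alone (iAtoh1) has no matched line.

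Atoh1 is a basic helix-loop-helix (bHLH) transcription factor that binds E-boxes, the hexamer CANNTG, as a dimer with an E protein. It is needed for the hair cells of the inner ear, for neurons of the cerebellum and dorsal spinal cord, for Merkel cells of the skin and for secretory cells of the gut. Proneural bHLH factors of this kind switch on Notch ligands in the cells that express them and meet feedback from Hes and Hey repressors and from Id proteins, which bind E proteins and keep them from DNA. Gfi1 is a zinc finger repressor and Pou4f3 a POU domain factor, and both act beside Atoh1 in hair cells.

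The deposited values are log2(normalized count + 1), and levels are given below as normalized counts. The Dox libraries held an estimated 30.4 to 44.0 M reads (median 38.7). For each of 16541 genes, the difference "with minus without Atoh1" was fitted with limma across the 7 line means, with terms for Gfi1 and for Pou4f3, and is on the log2(normalized count + 1) scale, which understates changes of low genes. A gene was called at an adjusted p under 0.05 (Benjamini-Hochberg over all 16541 genes) and a difference of at least 1.5. The fit leaves 3 residual degrees of freedom. There are 35 arrangements of 4 lines among 7, so a one-sided permutation p multiplied by 2 cannot fall below 0.0571. No permutation was run. The summed level of the clone check genes (Xist and 4 Y-linked genes) ran from 187 to 552 in the libraries with Atoh1. In those without it ran from 194 to 1021, and 0 of the 5 were called across lines. Between single lines, 1 of the 5 was called lower in iP+A than in iPou4f3, and 1 in iGPA than in iG+P. The sums were 208 and 228 against 730 and 806, and 361 and 291 against 1021 and 918. Without Dox they were 287 and 315 against 722 and 891, and 308 and 243 against 1011 and 970.

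The induced factors were measured first. Atoh1 (chr6:64679140-64681227 in mm9) reached 12816 to 21242 normalized counts in the 8 libraries with the transgene and 14.3 to 32.5 in the 6 without, a log2 difference of 9.37 (SE 0.20, adjusted p = 1.46e-04 in limma). In untreated EBs it was 29.6 to 120.1 in lines with the Atoh1 cassette and 3.02 to 13.3 in the others. Gfi1 reached 8119 to 12487 in the lines built to carry it and stayed at 49.7 to 113.0 in the others. Pou4f3 reached 4694 and 5381 in iPou4f3 and 10868 to 19883 in iP+A, iGPA and iG+P. The lines iP+A and iPou4f3 therefore differed in Pou4f3 level as well as in Atoh1. Without a Pou4f3 transgene, Pou4f3 was 101 and 62.6 in iAtoh1, 42.4 and 50 in iG+A, and 28.0 and 27.7 in iGfi1.

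With Atoh1, 252 genes were higher (1.52% of those tested) and 75 were lower (0.453%). The median difference was 2.58 among the former and −2.07 among the latter, and 0.02 over all genes. Each of the 252 and the 75 differed in the same direction in all 3 matched pairs, namely iG+A against iGfi1, iP+A against iPou4f3, and iGPA against iG+P, which use the same libraries as the fit. In 139 of the 252 the 8 libraries with Atoh1 all lay above the 6 without, against 419 of all genes tested (2.53%), and in 51 of the 75 they all lay below, against 521 of all genes (3.15%). Of the 252, 126 were highest in iGPA, 44 in iG+A, 43 in iP+A and 39 in iAtoh1. In the fit these lines had weights of 0.375, 0.25, 0.25 and 0.125 in the same order, so genes high in iGPA were more readily called. Whether the counts differ from what the weights alone would give was not tested. The number called depended on single libraries: without the second iG+P library it was 196 higher and 37 lower, without the first iGfi1 library 42 were lower, and without the first iGPA library 41 were lower. Leaving out a whole line kept all 327 differences in direction, but 1 gene was called higher and 0 lower without iGPA or without iGfi1, 55 and 9 without iG+A, and 112 and 11 without iP+A. With no trend in limma's prior variance the counts were 29 and 5.

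**Figure D1:**
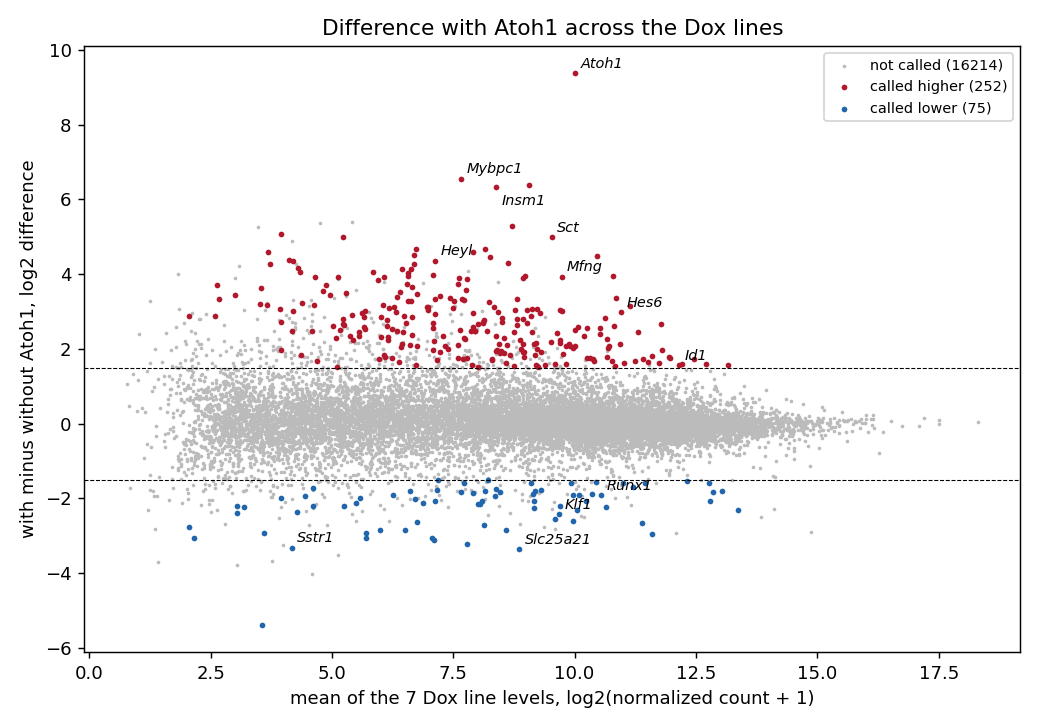
Log2 difference with minus without Atoh1 (vertical axis) against the mean of the 7 Dox line levels (horizontal axis, log2 of normalized count + 1) for each of 16541 genes. Red points are the 252 genes called higher, blue points the 75 called lower, and dashed lines mark a difference of 1.5 either way. Atoh1 itself lies at the top, at 9.37.

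After Atoh1 itself, the largest differences among called genes whose libraries did not overlap were in Mybpc1 (6.56, SE 0.50, adjusted p = 0.0110 in limma), a myosin-binding protein of slow muscle, and in Insm1 (6.34, SE 0.54, adjusted p = 0.0116), a zinc finger factor of neuronal and endocrine progenitors. Mybpc1 (chr10:87981024-88067897, mm9) had 551 to 3307 normalized counts with Atoh1 (median 1249) and 7.22 to 33.3 without (median 16.4). Insm1 (chr2:146047657-146050752) had 171 to 6019 with Atoh1 and 20.6 to 60.0 without. Its lowest libraries with Atoh1 were those of iAtoh1 (279 and 171) and its highest those of iGPA (5822 and 6019), so among the lines with Atoh1 the level followed the other factors in the cassette.

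Sct, the hormone secretin, was alike in all 4 lines with Atoh1, at 2054 to 4100 against 45.7 to 182.6 (difference 4.99, SE 0.30, adjusted p = 0.0101 in limma). Ppp1r17, which encodes a regulator of protein phosphatases, differed by 5.28 and Asb2, a substrate receptor of a ubiquitin ligase, by 4.99. Genes of signalling and channels were Kcnh3, a potassium channel (4.66), Pla2g2f, a secreted phospholipase (4.59), Drd4, a dopamine receptor (4.06), and Adra1b, an adrenergic receptor (4.05). Barhl1, a homeobox factor of the rhombic lip and of hair cells, differed by 4.50, Prph, an intermediate filament of peripheral neurons, by 4.49, and Cdhr5, a cadherin of brush borders, by 4.27. Srrm4, a neural splicing factor, differed by 4.15, with levels from 76.9 in iGPA to 2439 in iP+A. The remaining 2 of these 15 were Heyl, described with the Notch genes, and Actrt3 (4.26).

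**Figure D2:**
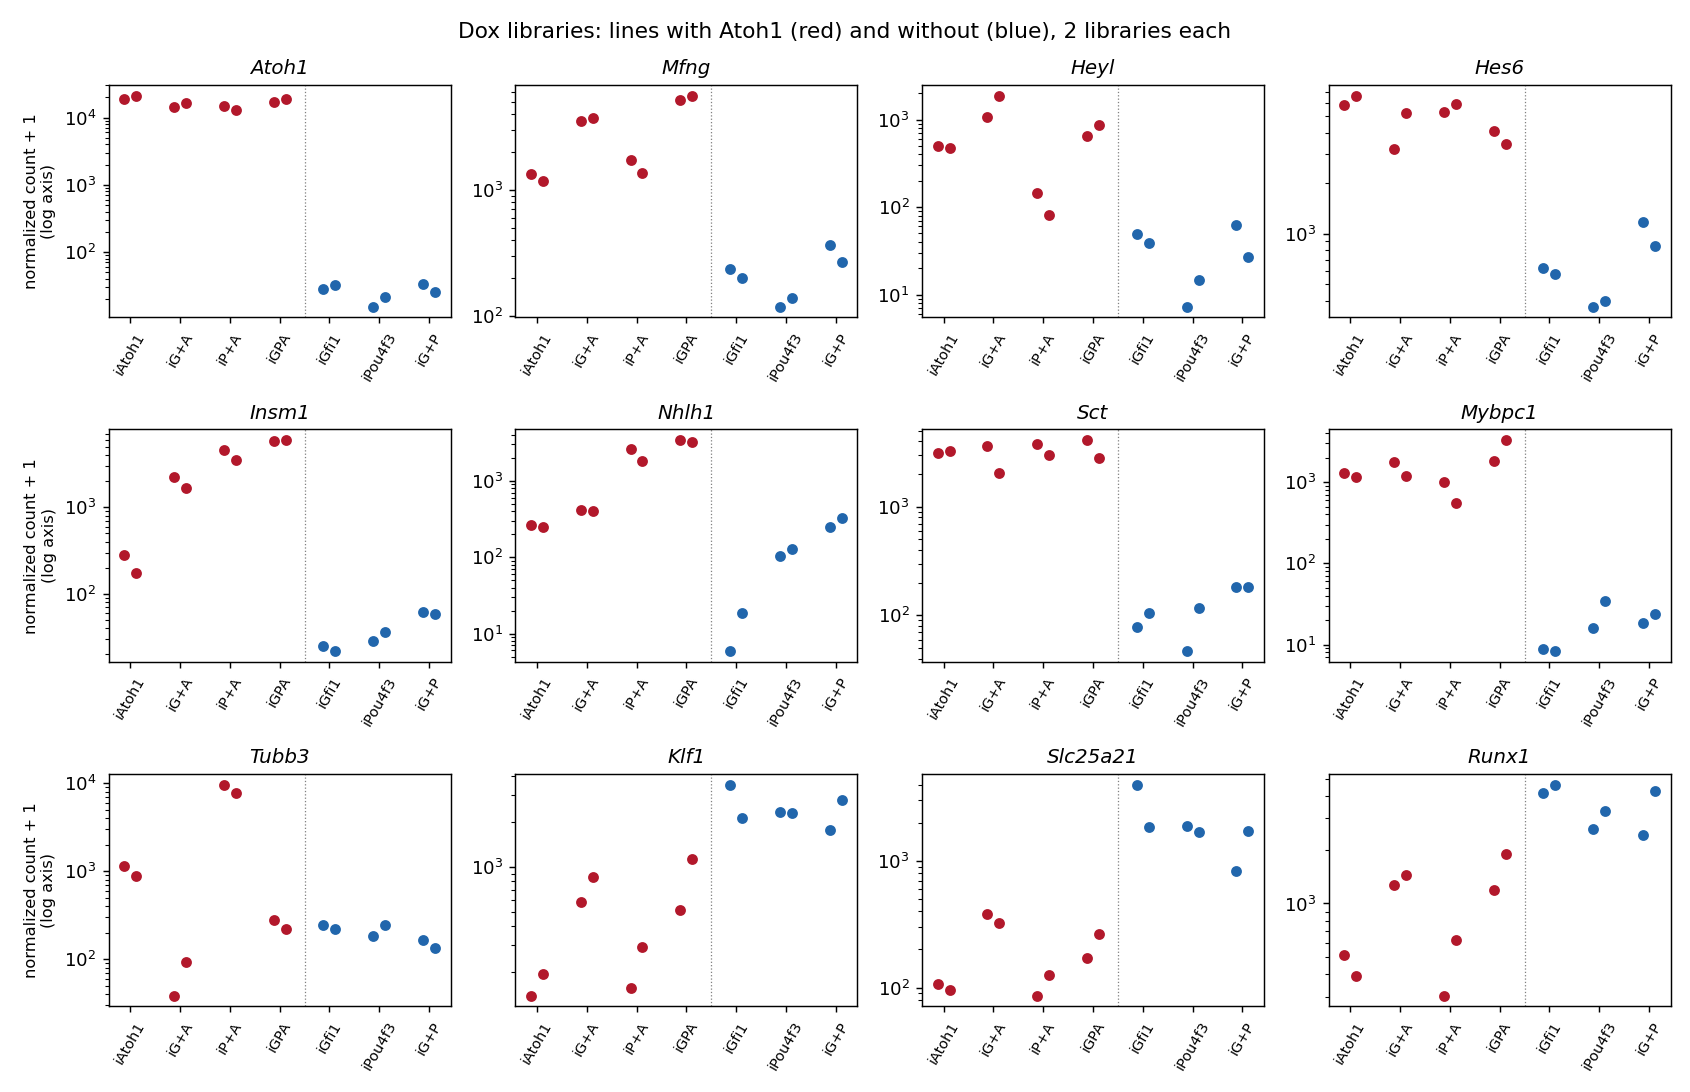
Normalized count + 1 (log axis) of 12 genes in the 14 Dox libraries, 2 points per line, with red for lines with Atoh1 and blue for lines without. Mfng, Sct and Mybpc1 separate the lines with Atoh1 from the others, Tubb3 is high in iP+A and iAtoh1 and not in iG+A or iGPA, and Klf1, Slc25a21 and Runx1 are lower in every line with Atoh1.

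Since Atoh1 binds E-boxes, promoters of these genes are shown with 3 E-box motifs marked in capitals. The first is CAGCTG, and the second is CAGATG, which reads CATCTG when it lies on the other strand. The third is CATATG. The first and the third read the same on both strands. The windows are the 250 bases before a RefSeq gene start (GRCm38.p6), read along the gene's strand. Among genes whose libraries did not overlap, Atoh1 left out, the largest rise with an entry, 2 further rises and the largest fall are shown, chosen after their values were seen. The window of Atoh1 itself holds 0 of the motifs. The windows are chr10:88605153-88605402, chr7:141279134-141279383, chr1:91414039-91414288 and chr12:57197473-57197722, all on the minus strand.
Mybpc1: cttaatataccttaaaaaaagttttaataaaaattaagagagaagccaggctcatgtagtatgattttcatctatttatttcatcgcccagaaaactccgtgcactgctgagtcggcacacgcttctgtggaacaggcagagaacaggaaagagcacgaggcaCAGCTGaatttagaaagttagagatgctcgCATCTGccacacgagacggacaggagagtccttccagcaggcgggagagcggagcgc
Sct: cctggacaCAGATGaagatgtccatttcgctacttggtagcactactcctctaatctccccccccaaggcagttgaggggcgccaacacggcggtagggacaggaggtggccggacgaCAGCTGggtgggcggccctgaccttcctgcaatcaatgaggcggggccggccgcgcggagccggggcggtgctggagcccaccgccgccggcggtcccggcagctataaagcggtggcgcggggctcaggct
Hes6: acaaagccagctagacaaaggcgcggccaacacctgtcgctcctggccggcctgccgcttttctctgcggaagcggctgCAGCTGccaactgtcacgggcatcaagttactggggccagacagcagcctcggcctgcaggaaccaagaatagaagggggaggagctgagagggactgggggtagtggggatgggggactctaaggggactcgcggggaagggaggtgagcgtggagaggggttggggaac
Slc25a21: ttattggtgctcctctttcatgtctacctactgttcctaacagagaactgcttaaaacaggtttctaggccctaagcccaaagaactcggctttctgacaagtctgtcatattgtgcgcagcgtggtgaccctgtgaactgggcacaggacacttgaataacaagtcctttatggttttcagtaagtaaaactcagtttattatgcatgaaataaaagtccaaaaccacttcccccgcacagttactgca

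In Mybpc1 the motifs begin 87 and 57 bases before the start, in Sct 242 and 132 bases, and in this Hes6 window 171 bases. A second Hes6 window also holds CAGCTG, 150 bases before its start. The windows shown do not stand for the rest: of 54 windows of named genes called across lines, 24 held a motif. Among other rises, Asb2, Prph and Drd4 held 0, and among other falls Dydc1 held 2 and Tubb1 held 1. At least 1 of the motifs was found in 93 of 232 promoters of genes called higher (40.1%, from 176 genes with an entry), in 12 of 66 of genes called lower (18.2%, from 51 genes), in 23.4% of the 16307 promoters of tested genes and in 28.1% of all 32851 promoters in the table. CAGCTG alone was in 25.9% of promoters of genes called higher, 10.6% of those called lower and 12.9% of those of tested genes. A match is a run of letters and not a measured binding site.

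The Notch pathway list held the most members called of any list examined. Of 27 tested members, 8 were higher and 0 lower with Atoh1, and the median difference was 1.27 against 0.02 over all genes. Over all genes tested, 1.52% were called higher and 0.453% lower, the shares to set beside the counts of each list below. Among the ligands, Dll4 differed by 2.71 (SE 0.28, adjusted p = 0.0155 in limma) and Jag2 by 2.39 (SE 0.23, adjusted p = 0.0141). Dll3, a ligand-like protein that acts inside the expressing cell, differed by 3.36 with an adjusted p in limma of 0.04995, just under the threshold, and it lost the call in 7 of the 14 fits that left out 1 library (adjusted p up to 0.0883, without the second iG+P library). Its libraries overlapped, at 1983 to 8832 with Atoh1 and 42.7 to 2825 without, where iG+P was highest. Dll1 (2.21, adjusted p = 0.124) and Jag1 (1.53, adjusted p = 0.0542) were not called.

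Mfng, a fringe glycosyltransferase that modifies Notch receptors, had the smallest adjusted p of the called genes after Atoh1. Mfng (chr15:78586312-78603905, mm9) had 1166 to 5626 normalized counts with Atoh1 (median 2638) and 117 to 361 without (median 217). The difference was 3.93 (SE 0.14, adjusted p = 0.00129 in limma), and the pairs gave 4.07, 3.58 and 4.11. The related Lfng differed by 2.86 and missed the threshold (adjusted p = 0.0506), and Rfng differed by −0.16. Among receptors, Notch1 differed by 1.27 (adjusted p = 0.0427), below the size threshold, and Notch2 and Notch3 by −0.12 and 0.16.

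Of the Hes and Hey repressors, Heyl (4.36, SE 0.42, adjusted p = 0.0137 in limma), Hes5 (3.72, SE 0.68, adjusted p = 0.0406) and Hey1 (1.77, SE 0.15, adjusted p = 0.0116) were higher. Heyl had 79.8 to 1881 with Atoh1 and 6.23 to 60.8 without, with no overlap. Hes5 had 9.58 to 343 with Atoh1 and 0.893 to 28.7 without, overlapping through iP+A (14.5 and 9.58). Its adjusted p rose to 0.0784 without the first iPou4f3 library and also passed 0.05 without the second iG+P library. Hes6 (chr1:93308060-93310615, mm9), an atypical member that counters Hes1, had 3197 to 6639 with Atoh1 and 366 to 1167 without, a difference of 2.98 (SE 0.38, adjusted p = 0.0209). Hes1 itself differed by 0.79 (adjusted p = 0.111). Without the second iG+P library, 6 members were called in place of 8.

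**Figure D3:**
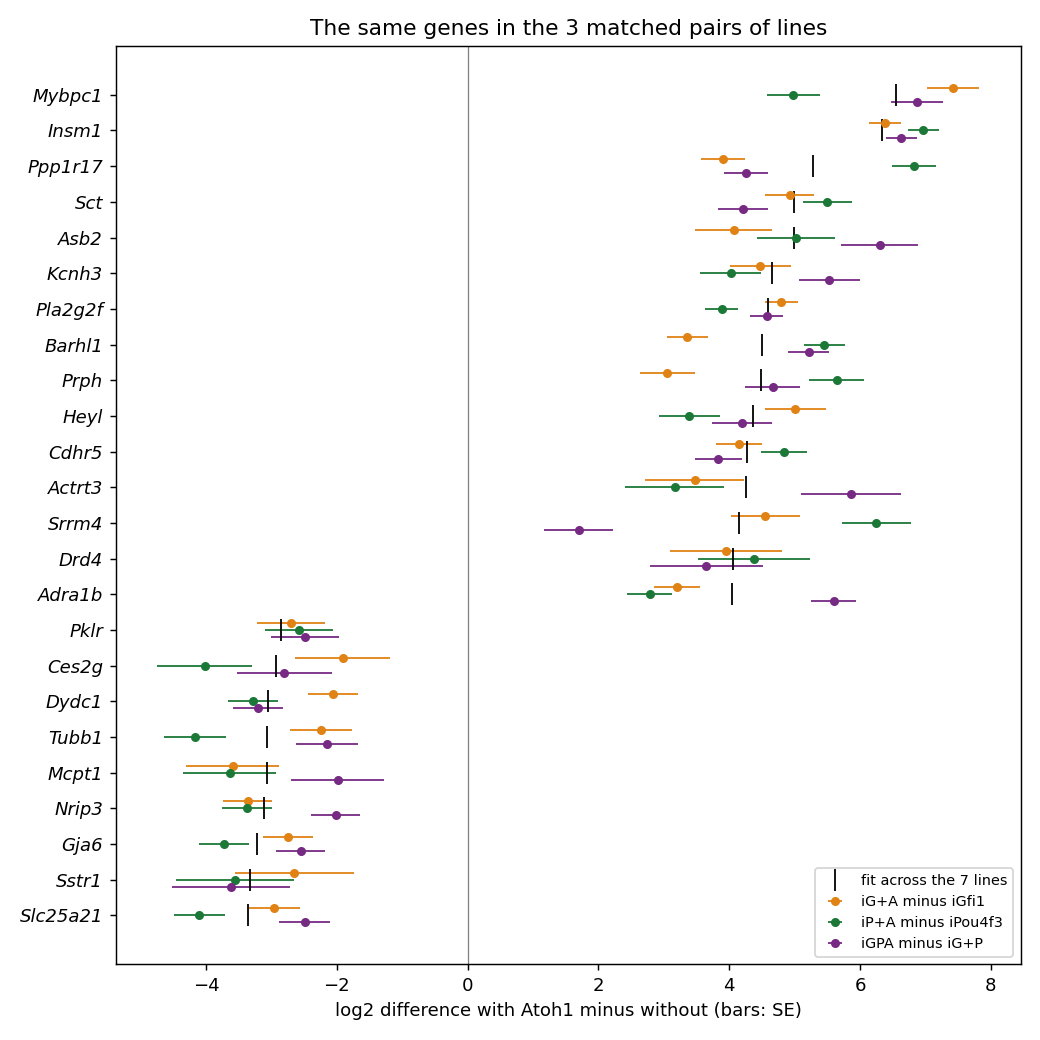
Log2 difference (horizontal axis, bars are SE) of the 15 largest rises and 9 of the 10 largest falls whose libraries did not overlap, in the 3 matched pairs of lines (coloured points) and in the fit across the 7 lines (black ticks). The sign of the pairs is fixed by the choice of genes whose libraries did not overlap, and their spread is what the plot shows: Srrm4 runs from 1.70 in iGPA against iG+P to 6.25 in iP+A against iPou4f3.

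Of 11 tested proneural bHLH genes other than Atoh1, 3 were higher and 0 lower, with a median of 1.06. Nhlh1 and Nhlh2, which act in newly born neurons, differed by 4.45 (SE 0.36, adjusted p = 0.0113 in limma) and 3.55 (SE 0.37, adjusted p = 0.0151). Nhlh1 had 249 to 3430 with Atoh1, and the iG+P libraries (249 and 330) reached the lowest of these. Neurod1, a driver of neuronal and endocrine differentiation, differed by 4.13 (SE 0.61, adjusted p = 0.0255), and its adjusted p was 0.0501 without the first iPou4f3 library. It stood at 54.8 and 54.9 in iAtoh1, below 1 iPou4f3 library (95.8), and at 211 to 701 in the other lines with Atoh1.

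Among general neuronal genes, 6 of 45 were higher and 0 lower, with a median of 1.20. They were Insm1, Srrm4, Myt1 (3.40), Map2 (3.13), Syp (2.96) and Chgb (2.20). Syp, a membrane protein of synaptic vesicles, had 234 to 1401 with Atoh1 and 59.6 to 156.0 without. Myt1, a neuronal zinc finger factor, had 4037 and 5900 in iP+A and 2807 and 2970 in iGPA, but 15.6 to 45.4 in iAtoh1 and iG+A, below iPou4f3 and iG+P at 194 to 270. Myt1 was therefore high where Pou4f3 was present, and higher again with Atoh1. Leaving out 1 library raised the adjusted p to at most 0.0749 for Srrm4 (without the second iG+P library), 0.0681 for Map2 (without the first iAtoh1 library, and above 0.05 in 7 of 14 such fits) and 0.0590 for Chgb (without the first iGfi1 library). The number of the 45 called ran from 4 to 8.

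The neuronal markers used in the study were not called. Tubb3, neuronal beta-tubulin, had 9649 and 7735 in iP+A, 1142 and 870 in iAtoh1, 278 and 222 in iGPA, 37.2 and 91.5 in iG+A, and 132 to 245 in the lines without Atoh1 (difference 1.33, SE 1.21, adjusted p = 0.570 in limma). Dcx, a microtubule protein of young neurons, differed by 1.74 (SE 0.66, adjusted p = 0.191). Barhl2, a homeobox factor, differed by 1.52 (SE 0.80, adjusted p = 0.313). All 3 were called higher in iP+A against iPou4f3. In the other pairs none was called higher, with differences from 0.07 to 0.76, except that Tubb3 was called lower in iG+A against iGfi1 (−1.95, adjusted p = 0.00171).

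Of 26 sensory neuron genes, 5 were higher and 1 lower, with a median of 0.97. Prrxl1 (4.68, SE 0.55, adjusted p = 0.0182 in limma), a homeobox factor of pain neurons, had 2547 and 2603 in iGPA, 511 and 667 in iP+A, 142 and 287 in iG+A and 35.2 and 51.1 in iAtoh1, against 9.54 to 37.0 without Atoh1. Ngfr, the low-affinity neurotrophin receptor, differed by 2.12 (adjusted p = 0.0277). Isl1, a LIM homeobox factor, had 931 to 7397 with Atoh1 and 481 to 770 without (2.55, SE 0.33, adjusted p = 0.0218). Prph was also higher, and the member called lower, Runx1, is described with the blood genes. Summed over the list, levels were 10691 to 27637 with Atoh1 and 6996 to 8747 without, with no overlap. In iAtoh1, however, Prph alone held 4619 and 7123 of sums of 10691 and 11755. It had 159 to 441 in the libraries without Atoh1, so the separation of iAtoh1 in the sum rested largely on Prph.

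The hair bundle and synapse list had 2 of 45 members higher and 0 lower, with a median of 0.13 that turned to −0.03 under quantile normalization and without the first iPou4f3 library. Lhx3, a LIM homeobox factor of hair cells and motor neurons, had 337 and 497 in iGPA, 76.0 and 143 in iG+A, 28.8 and 47.9 in iP+A and 1.35 and 9.14 in iAtoh1, against 0 to 5.63 without Atoh1 (difference 5.08, SE 0.54, adjusted p = 0.0162 in limma). The iAtoh1 libraries lay within the range of the lines without Atoh1 or just above it. Tmie, part of the mechanotransduction channel of hair cells, had 975 and 1086 in iGPA and 233 and 279 in iG+P, but 7.57 and 9.14 in iAtoh1 (2.84, SE 0.43, adjusted p = 0.0269). The other hair cell markers of the study were not called: Espn, an actin bundler, differed by 1.08, Myo6 by 0.98, Myo7a by 0.66, Cdh23 by −0.66 and Otof by −0.75, with adjusted p from 0.0603 to 0.242. In the matched pairs, counting Lhx3, which was called higher in each, 2 of the 6 markers were called higher in iG+A against iGfi1. The number was 2 in iP+A against iPou4f3 and 1 in iGPA against iG+P, with 0 lower in any pair. Otof, the calcium sensor of the hair cell synapse, was highest in iG+P, at 997 and 485, above 293 and 240 in iGPA.

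Lists of other Atoh1 lineages were also examined. Of 21 intestinal secretory genes, 5 were higher and 0 lower (median 0.43), against 1.52% and 0.453% of all genes tested. Among the 5 were Sct, Fcgbp, Cck and Chgb, and Chgb is also counted among the general neuronal genes. At any size, 14 of the 21 had a difference above 0 and 7 below. Without the first iGfi1 library 3 were called, and the median ran from 0.25 to 0.65 when 1 library was left out. Fcgbp, a mucus protein, had 140 to 708 with Atoh1 and 12.1 to 54.3 without (3.46, SE 0.63, adjusted p = 0.0405 in limma). Cck, a gut and brain peptide, had 52.1 to 285 against 11.8 to 28.0 (2.52, SE 0.50, adjusted p = 0.0472). The adjusted p of Fcgbp rose to 0.0604 without the first iG+A library and that of Cck to 0.0592 without the second iG+P library, Cck losing the call in 7 of 14 such fits.

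The Merkel cell list shares Insm1, Isl1 and Cck with these lists, and they were its 3 members called of 13 (median 0.95, but 0.57 without the first iPou4f3 library). Of 26 genes of the rhombic lip and dorsal interneuron lineage, 3 were higher and 1 lower (median 0.17, but 0.04 under quantile normalization and 0.11 to 0.31 when 1 library was left out). They were Barhl1, Slc17a7, a vesicular glutamate transporter (3.34, SE 0.37, adjusted p = 0.0179 in limma), Cntn2, an axonal adhesion protein (2.73, SE 0.35, adjusted p = 0.0209), and, in the other direction, Lmx1a, a factor of the roof plate (−2.16, SE 0.39, adjusted p = 0.0397, but 0.0785 without the first iGPA library and also above 0.05 without the second iG+P library). Lmx1a had 45.7 to 566 with Atoh1 and 349 to 1519 without, the overlap lying in iGPA.

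**Figure D4:**
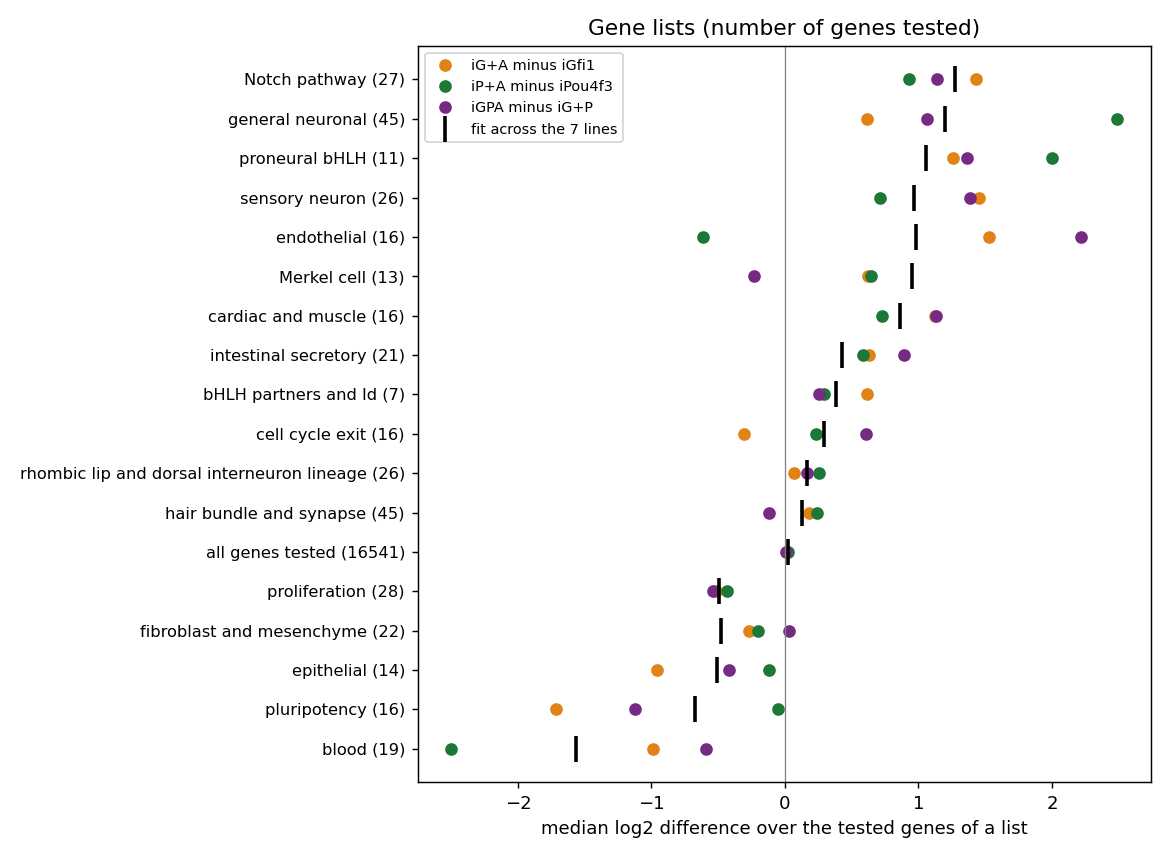
Median log2 difference over the tested genes of 17 lists and of all genes (horizontal axis) in the 3 matched pairs (coloured points) and in the fit across the 7 lines (black ticks), with the number of genes tested in brackets. The Notch list lies between 0.93 and 1.43 in the pairs, the general neuronal list runs from 0.62 to 2.49, the endothelial list from −0.61 to 2.22, and the proliferation list is near −0.49 in each.

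The Id genes, which encode inhibitors of bHLH dimers, were higher with Atoh1 for Id1, Id2 and Id3 at an adjusted p under 0.05. Id1 had 5568 to 11039 with Atoh1 and 1888 to 2958 without (1.57, SE 0.23, adjusted p = 0.0255 in limma). Id2 (1.42, SE 0.09, adjusted p = 0.0101) and Id3 (1.43, SE 0.21, adjusted p = 0.0255) fell short of the size threshold, so 1 of the 7 genes of bHLH partners and Ids was called. Their 8 libraries with Atoh1 all lay above the 6 without (3 of the 7 genes), against 419 of all genes tested (2.53%). Id4 differed by −0.15, and the E proteins Tcf3, Tcf4 and Tcf12 by 0.22, 0.38 and 0.13, none called.

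Of 28 proliferation genes, 22 had a difference below 0 and 6 above, from −0.94 to 0.60. None reached 1.5, but 15 were lower at an adjusted p under 0.05 in limma, against 381 of all genes tested (2.30%), and 0 were higher, against 523 (3.16%). The median was −0.49, and −0.52, −0.43 and −0.54 in the 3 pairs. Mki67, a marker of cycling cells, had line levels of 16269 to 20061 with Atoh1 and 32796 to 35337 without (−0.94, SE 0.09, adjusted p = 0.0143), Top2a, a topoisomerase of dividing cells, differed by −0.74, Aurka, a mitotic kinase, by −0.72 and Ccnb1, a mitotic cyclin, by −0.70. The D-type cyclins Ccnd1, Ccnd2 and Ccnd3 differed by 0.25, 0.10 and −0.33 with adjusted p of at least 0.159. Between 8 and 15 members passed when 1 library was left out. The summed level of the list was 167795 to 212311 with Atoh1, 241616 to 286348 without, and 230409 to 261894 in untreated EBs. The untreated EBs were not sorted for mVenus, so sorting and cell makeup cannot be told apart from induction in any comparison of levels with them. In these bulk samples, fewer cells of a type and less RNA per cell cannot be told apart. Of 16 genes of cell cycle exit, 0 were called (median 0.29).

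**Figure D5:**
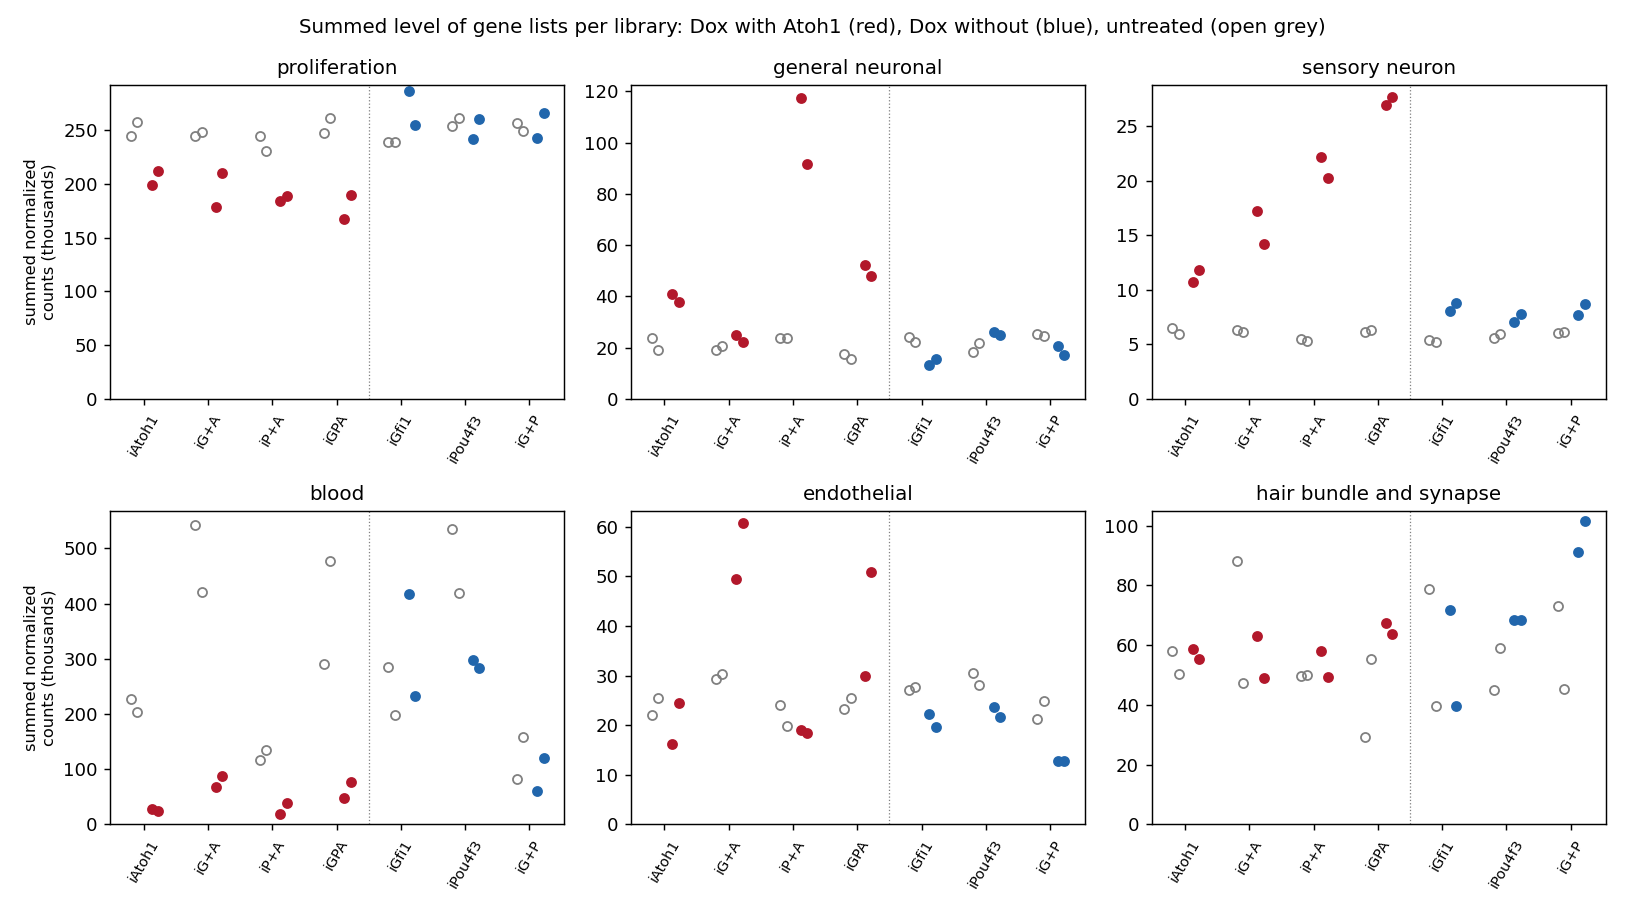
Summed normalized counts (axes in k, from 0) of 6 gene lists in each library, with red for Dox lines with Atoh1, blue for Dox lines without and open grey for untreated EBs of the same line. Proliferation separates the lines with Atoh1 from all others, general neuronal genes are highest in iP+A, and blood genes are low in the lines with Atoh1 and in iG+P.

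Among the 10 largest falls of genes whose libraries did not overlap were Slc25a21 (−3.36, SE 0.42, adjusted p = 0.0203 in limma), a mitochondrial carrier, Sstr1 (−3.33), a somatostatin receptor, Gja6 (−3.22), a connexin, Nrip3 (−3.11), Mcpt1 (−3.07), a mast cell protease, Tubb1 (−3.07), the beta-tubulin of platelets, Dydc1 (−3.05), Ces2g (−2.94), a carboxylesterase, and Pklr (−2.86), the pyruvate kinase of liver and red cells. Slc25a21 (chr12:57813621-58298459, mm9) had 85.0 to 380 with Atoh1 (median 149) and 837 to 4004 without (median 1793). Mcpt1 is at the low end, with 0 to 4.03 against 8.87 to 25.1. When 1 library was left out, Tubb1, Pklr, Ces2g, and Mcpt1 each lost the call at least once, at adjusted p up to 0.0618, the highest being that of Pklr without the second iG+P library.

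Of 19 tested blood genes, 4 were lower, against 75 of all genes tested (0.453%), and 0 were higher, with a median of −1.56. Among them were Alas2, an enzyme of heme synthesis in red cells (−2.67, SE 0.50, adjusted p = 0.0430 in limma), Klf1, a red cell factor (−2.43, SE 0.40, adjusted p = 0.0315), and Runx1, a factor of blood formation (−1.92, SE 0.31, adjusted p = 0.0299). Klf1 had 137 to 1128 with Atoh1 and 1742 to 3526 without, and Runx1 had 302 to 1884 against 2419 to 4648. For 7 of the 19 all libraries with Atoh1 lay below all those without, against 521 of all genes tested (3.15%). None of the 4 was called without the second iG+P library, where the adjusted p was 0.0573 for Klf1, 0.0659 for Runx1 and 0.0879 for Alas2. The embryonic globin Hbb-bh1 was at line levels of 10770 to 25298 with Atoh1, 167197 and 167726 in iGfi1 and iPou4f3, and 21872 in iG+P (−2.89, adjusted p = 0.0820). The summed level of the list was 19216 to 88505 with Atoh1, 61562 to 417417 without and 82216 to 542165 in untreated EBs, and the 2 iG+P libraries, at 61562 and 121153, were the lowest without Atoh1. That line was also low without Dox, at 82216 and 157792 against 198285 to 535677 in untreated iGfi1 and iPou4f3. Whether the level of blood cells in a culture set these values was not tested.

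Of 16 cardiac and muscle genes, 3 were higher and 0 lower (median 0.86): Isl1, Des, a muscle intermediate filament (1.77, SE 0.17, adjusted p = 0.0140 in limma), and Tbx5, a heart factor (1.70, SE 0.34, adjusted p = 0.0472, up to 0.0897, without the first iP+A library, with the call lost in 8 of 14 such fits). Summed over the cardiac list, levels were 17135 to 30870 with Atoh1 and 6171 to 14022 without. Untreated EBs, at 10547 to 25553, overlapped both ranges. Des had 3426 to 9753 with Atoh1 and 1554 to 2854 without. Of 16 endothelial genes, only Etv2, a factor of blood and vessel progenitors, was called (2.14, SE 0.33, adjusted p = 0.0287), with 1464 to 3322 in iG+A and iGPA and 289 to 438 in iAtoh1 and iP+A, against 135 to 336 without Atoh1, so the libraries overlapped. Pluripotency (median −0.67 over 16), mesoderm and endoderm (−0.27 over 21), fibroblast and mesenchyme (−0.48 over 22), epithelial (−0.51 over 14) and dissociation stress genes (0.39 over 18) had 0 members called in either direction. Single libraries moved 3 of these medians: when 1 was left out, that of mesoderm and endoderm ran from −0.35 to −0.05 (without the first iG+A library), that of fibroblast genes from −0.57 to −0.29 (without the second iGfi1 library) and that of stress genes from 0.24 (without the second iGPA library) to 0.57. At an adjusted p under 0.05 and any size, 2 fibroblast genes were higher, and 0 without the first iGfi1, the second iPou4f3 or the first iG+A library. The summed level of stress genes overlapped, at 60266 to 170971 with Atoh1 and 39914 to 194016 without.

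The 3 matched pairs ask whether the difference that went with Atoh1 was the same in each background. The spread was taken between replicates (7 residual degrees of freedom). The level of Pou4f3 was also higher in iP+A than in iPou4f3, as given above. In that pair, and in the test of the difference by Gfi1, it cannot be told apart from Atoh1. With Gfi1 alone, 878 genes were higher with Atoh1 (5.31%) and 478 lower (2.89%). With Pou4f3 alone, 694 were higher (4.20%) and 317 lower (1.92%). With both, 830 were higher (5.02%) and 230 lower (1.39%). At least 1 pair called 1608 genes higher and 840 lower, all 3 pairs called 175 higher and 30 lower, and 92 genes were called in opposite directions in different pairs. The pairs share no library, and the line fit called 158 of the 175 and 25 of the 30.

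Gene groups differed between the pairs. Of 45 general neuronal genes, 32 were higher with Atoh1 in the Pou4f3 background, 17 beside Gfi1 and Pou4f3, and 9 in the Gfi1 background, where 2 were lower. Tubb3 differed by 5.34, 0.76 and −1.95 in the same order. Taken with its sign, the difference was smaller for 10 of the 45 genes with Gfi1 beside Pou4f3 than with Pou4f3 alone, against 182 of all genes tested (1.10%), and for 2 it was larger, against 450 (2.72%). With Pou4f3 beside Gfi1, 8 had a larger difference than with Gfi1 alone, against 336 of all genes (2.03%), and 1 a smaller one, against 192 (1.16%). Endothelial genes went the other way: 12 of 16 were higher beside both factors, 8 in the Gfi1 background and 0 in the Pou4f3 background, and 10 of the 16 had a larger difference with Gfi1 beside Pou4f3. Of 19 blood genes, 15 were lower with Atoh1 in the Pou4f3 background, 6 in the Gfi1 background and 2 beside both, where 1 was higher. In the test of the difference, 7 of the 19 were higher by Gfi1 and 0 lower, and 0 were called by Pou4f3. Dissociation stress genes had medians of −1.37, 1.24 and 0.80 in the Gfi1, Pou4f3 and double backgrounds, with 6 of 18 called lower in the first and 4 called higher in the second. In the test of the difference 0 of the 18 were called by Gfi1, and 3 were larger and 0 smaller by Pou4f3. Together these stress genes had 155008 and 170971 normalized counts in iP+A against 61086 and 63490 in iPou4f3, and their part in the differences between pairs was not tested. In the Notch list, 13, 10 and 10 of 27 were higher in the Gfi1, Pou4f3 and double backgrounds and 0 lower in any, with 1 gene larger and 1 smaller in the test of the difference.

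These tests of the difference called 632 genes by Gfi1 (3.82%) and 528 by Pou4f3 (3.19%). Single libraries moved the counts: by Gfi1, 258 were called without the second iGPA library, 263 without the first iP+A, 329 without the first iPou4f3 and 400 without the first iG+P, and by Pou4f3, 214 without the second iGPA, 228 without the first iG+P, 288 without the first iGPA and 309 without the second iGfi1. Of the 327 genes called across lines, 48 differed by Gfi1 (14.7%) and 13 by Pou4f3 (3.98%), the latter near the share of all genes. Hes6 was among them, since its difference was 1.92 beside Gfi1 and Pou4f3 and 3.87 beside Pou4f3 alone, and so were Isl1 and Prrxl1, whose differences were larger beside both factors (3.51 and 6.31) than beside Pou4f3 alone (1.74 and 4.24).

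The same contrast in untreated EBs, where Atoh1 was low but already higher in the lines with its cassette, called 0 genes in limma, with 216 (1.31%) at an unadjusted p under 0.05 against 3876 (23.4%) with Dox. Of the 327 genes called with Dox, 4 differed by at least 1.5 between untreated lines: Atoh1 (3.24), Rtl5 (1.51), 1 gene without a symbol (1.54), and Ints2, which was higher without Dox (4.35) and lower with it (−5.38). Ints2 is also a gene that was absent in 1 replicate and present in the other of the same line. After subtracting the untreated difference, all 327 kept their direction and 317 stayed at 1.5 or more, but none passed the threshold, with 3338 genes at an unadjusted p under 0.05 and a smallest adjusted p of 0.0902.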

How the data were processed

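RNA was sequenced from 28 libraries, and the 14 Dox libraries were compared here, with the 14 untreated libraries as background. Per the labels and the methods of the study, 1 mRNA library was made per sample, and the authors trimmed reads with cutadapt, estimated transcript levels with kallisto against the mm9 knownGene set, summed them per gene with tximport and normalized them with DESeq2 (versions not given in the sources used here). The values the authors deposited are on a log2 scale, log2(normalized count + 1), and cover 19421 genes, each given by its Entrez ID. Raw counts could not be recovered from them, so a count model was not used, and depth was estimated from the smallest steps between values.

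A gene was tested when 2 or more Dox libraries reached 10 normalized counts (16541 genes). The main fit used limma (version 3.58.1, under R 4.3.3), letting the prior variance follow the mean level, and was made to the 7 Dox line means with terms for Atoh1, Gfi1 and Pou4f3. A second limma fit of the 14 libraries as 7 groups gave the matched pairs and the differences between them. The p-values were adjusted by the Benjamini-Hochberg method over all genes tested. The scripts were tested on simulated data. Replicates of a line are different clones, so p-values of the second fit measure the spread between clones. The replicate numbers of different lines were not treated as pairs.

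The genes named were the cassette genes, the 15 largest rises and 10 largest falls among called genes whose libraries did not overlap, up to 5 called members of each gene list, the 9 neuronal and hair cell markers of the study, and the 4 largest differences in each direction between pairs. A few genes that this rule names are not reported here. Other members of a list, and Rtl5 and Ints2, were named after their values were seen. The comparison and the gene lists were chosen with earlier results of these data known, so they are not independent evidence. Promoter sequences are from RefSeq (GRCm38.p6), with an entry for 12894 of the 16541 tested genes. Alternatives were other pseudocounts, filters, scalings and thresholds, other models, and leaving out each library and each line.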

Additional observations from a re-analysis of the deposited data

Results flagged for a closer look

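The difference with Atoh1 changed with the rest of the cassette for the following named genes, by limma's test of the difference between matched pairs. The values are differences of log2 differences, taken with their sign, so a positive value can also mean a weaker fall. Several of these genes are listed at 0 in some libraries, where the fitted value depends on the 1 added before taking logs.

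Beside Pou4f3, adding Gfi1 made the difference with Atoh1 smaller for 10 of 45 general neuronal genes and larger for 2, and among 26 sensory neuron genes smaller for 1 and larger for 5. Of all genes tested, 1.1% were smaller and 2.72% larger. The value was −4.58 for Tubb3, −4.54 for Srrm4 and −2.92 for Dcx. It was −6.21 for Bhlhe22, a neuronal bHLH repressor, which had 688 and 424 normalized counts in iP+A and 29.6 and 18.1 in iGPA. It was −5.73 for Scrt2, a neuronal zinc finger repressor, with 147 and 88.5 in iP+A and 4.10 and 1.01 in iGPA. Other negative values were −5.97 for Rasl10a, −4.83 for Rag1, −4.83 for Ces1d, −2.57 for Ppp1r17, −1.95 for Hes6, −1.71 for Espn and −1.65 for Pou4f3 itself, whose level followed the cassette.

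The difference was larger with Gfi1 for Dbx1 (8.62), a homeobox factor of spinal interneurons, which had 764 and 892 in iG+A, 335 and 455 in iGPA, and at most 20.1 in the other Dox libraries. Msln (6.6), a surface protein of mesothelium, had 111 and 135 in iG+A and 411 and 451 in iGPA. The value was 2.81 for Adra1b, 2.07 for Prrxl1, 1.77 for Isl1 and 1.68 for Cntn2. For Alas2 (2.70) and Lmx1a (1.96) it was a weaker fall, from −3.77 to −1.08 and from −2.87 to −0.91. That of Mstn (7.11) came from iPou4f3, with 156 and 121 against at most 2.44 elsewhere. That of Rprl1 (8.77, and the same by Pou4f3) came from iGPA, whose replicates were far apart at 84.4 and 2240, while the other Dox libraries were listed at 0.

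Beside Gfi1, adding Pou4f3 changed the difference by 2.70 for Tubb3, 2.39 for Adra1b, 2.27 for Map2, 2.25 for Prrxl1, 1.86 for Barhl1 and −2.85 for Srrm4. Scx, a tendon factor, gave −5.10. Lrrc4, a synaptic adhesion protein, gave −6.45, with 77.7 and 123 in iG+A, 490 and 439 in iGPA, 396 and 425 in iG+P and 0 in the others. Pcdh17, a protocadherin, gave −5.73 and Ces1d −5.85, both highest in iG+P. Fam71a gave 7.33. B3glct gave 6.68, with iG+A at 13.9 and 20.2 and the other Dox lines at 742 to 2094, and it was low in iG+A without Dox too (23.7 and 26.6). Gm5797 gave 7.63, from iGfi1 at 118 and 330, and is one of the genes present in 1 replicate of a line and absent in the other.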

How the results depend on the processing

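All 327 called genes kept their direction under every alternative in which they were tested, and from 295 to 327 stayed at 1.5 or more. The number called was less stable. Against 252 higher and 75 lower, it was 464 and 156 with the 14 libraries and the line as a block, 449 and 149 with a replicate block added, 553 and 240 from the spread between replicates only, 69 and 11 with no covariates, 29 and 5 without limma's trend, and 0 and 0 after subtracting the untreated difference (3338 at an unadjusted p under 0.05). A threshold of 1 in place of 1.5 gave 126 lower, and 2171, 1593 and 1639 called in the Gfi1, Pou4f3 and double backgrounds. Leaving out 1 library gave 196 to 286 higher and 37 to 109 lower, and leaving out 1 line gave 1 to 225 higher and 0 to 69 lower. Leaving out 1 library gave 258 to 673 called by Gfi1 and 214 to 528 by Pou4f3. The cause of these shifts was not tested.

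Of the 56 named called genes, 38 were called without each library in turn, and 18 lost the call at least once. The replicate numbers did not pair the lines: their replicate differences correlated from −0.20 to 0.12 (median −0.001, 1 of 21 over 0.1). A replicate block moved no count in the pairs, or in the differences between them, by over 1.5 times. Leaving out genes present in 1 replicate only, chosen after seeing the data, gave 253 and 74. Low counts limit genes such as Mcpt1.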
